A study of Homo sapiens with 54 samples.

Results

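HT-29, DLD-1 and HCT-116 are colorectal carcinoma cell lines, and the comparison described here was between the never-selected (sensitive) HT-29 cells and the mean of sensitive DLD-1 and sensitive HCT-116 cells, all treated with 10 µM uracil for 24 h. Uracil is the natural base that served as the control for the drug 5-fluorouracil (5-FU), so the comparison reads the baseline identity of the line and not a drug effect. It used 9 of the 54 poly(A) RNA-seq libraries of the study: 3 of HT-29, 3 of DLD-1 and 3 of HCT-116, chosen by their titles. The other libraries held the same lines treated with 5-FU or with 5-FU and irradiation, and derivatives of each line labelled as resistant to 5-FU. The lines were grown in the same medium from the same supplier and differ in their genetics: by the study's description DLD-1 and HCT-116 have microsatellite instability and HT-29 has chromosomal instability, and the lines carry different driver mutations. Each line stands for 1 tumor, so a difference between lines cannot be told apart from any of these features.

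The colon epithelium renews from stem cells kept at the crypt base by WNT signaling, and its progeny become absorptive colonocytes with a brush border, mucus-secreting goblet cells or hormone-secreting enteroendocrine cells. The identity of these cells is set by transcription factors of the CDX, HNF and KLF families. Carcinoma lines keep parts of this program, and which parts they keep differs from line to line.

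Depth ranged from 39728206 estimated counts (HT-29 replicate 3) to 218518344 (DLD-1 replicate 2), and replicates of a line correlated at r = 0.991 to 0.995 across genes. Of 7 colorectal epithelial markers, 5 reached 1 TPM, a level corrected for transcript length and depth, in HT-29, 7 in DLD-1 and 5 in HCT-116. EPCAM, an epithelial surface protein, was at 649 ± 34.6 TPM in HT-29 (SD, n = 3), and the simple-epithelial keratins KRT8 and KRT18 were at 3872 ± 160 and 3410 ± 185 TPM. CDX2 and CDH17, which define intestinal epithelium, were at 0.194 ± 0.0946 and 0.522 ± 0.154 TPM in HT-29, so the libraries carried an epithelial but not the full colorectal marker set. Of 13 leukocyte, endothelial and fibroblast markers, 1 reached 1 TPM in HT-29, and their summed level was 6.48 to 7.44 TPM in HT-29, 3.7 to 6.13 in DLD-1 and 21.1 to 25.9 in HCT-116. That gene was CD14, a monocyte marker, at 4.84 TPM in HT-29 and higher there than in each other line (2.57 and 0.111 TPM). CD68, a macrophage marker outside those 13, was at 4.31, 0.801 and 8.64 TPM in HT-29, DLD-1 and HCT-116. The libraries labelled resistant HT-29 were not used to check HT-29 genes: of the genes described below as higher or lower in HT-29 than in each other line, 1764 of 1880 (93.8%) and 2214 of 2447 (90.5%) had a level there nearer to sensitive HCT-116 than to sensitive HT-29, LYZ for example being at 0.108 TPM.

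The promoters of 4 genes that set HT-29 apart are shown first, because they hold short motifs of the oxidative stress and interferon responses, whose genes are among the results. The sequences are RefSeq promoters on GRCh38.p14, from 250 bases before to 50 bases after the annotated start, written 5′ to 3′ along the gene. Capitals mark TGACNNNGC (the core of the antioxidant response element), GAAANNGAA (the core of the interferon-stimulated response element) and TATAAA (the box bound by the general factor TBP), each searched on both strands. The first 2 genes were higher in HT-29 and hold the antioxidant core. They are GPX2 (chr14:64942696-64942995, minus strand) and TM4SF4 (chr3:149474447-149474746, plus). The last 2 hold the interferon element and went in opposite directions: BST2 (chr19:17405581-17405880, minus) was higher in HT-29 and IFITM3 (chr11:320811-321110, minus) was lower.
GPX2: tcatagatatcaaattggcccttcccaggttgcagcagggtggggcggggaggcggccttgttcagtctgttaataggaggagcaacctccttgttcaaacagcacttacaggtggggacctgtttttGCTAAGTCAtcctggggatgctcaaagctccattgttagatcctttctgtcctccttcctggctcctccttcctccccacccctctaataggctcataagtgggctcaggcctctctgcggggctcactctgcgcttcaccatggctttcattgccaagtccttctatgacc
TM4SF4: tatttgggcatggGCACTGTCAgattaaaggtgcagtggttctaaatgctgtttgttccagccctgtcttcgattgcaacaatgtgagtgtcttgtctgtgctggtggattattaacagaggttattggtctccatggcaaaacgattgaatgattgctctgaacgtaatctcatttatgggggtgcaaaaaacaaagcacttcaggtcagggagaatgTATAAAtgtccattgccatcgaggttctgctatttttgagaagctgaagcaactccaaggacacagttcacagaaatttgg
BST2: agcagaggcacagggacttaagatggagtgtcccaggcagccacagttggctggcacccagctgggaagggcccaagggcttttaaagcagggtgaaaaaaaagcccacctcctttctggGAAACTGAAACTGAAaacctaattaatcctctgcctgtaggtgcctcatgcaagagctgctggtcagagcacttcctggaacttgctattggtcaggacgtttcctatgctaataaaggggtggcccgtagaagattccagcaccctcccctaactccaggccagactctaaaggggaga
IFITM3: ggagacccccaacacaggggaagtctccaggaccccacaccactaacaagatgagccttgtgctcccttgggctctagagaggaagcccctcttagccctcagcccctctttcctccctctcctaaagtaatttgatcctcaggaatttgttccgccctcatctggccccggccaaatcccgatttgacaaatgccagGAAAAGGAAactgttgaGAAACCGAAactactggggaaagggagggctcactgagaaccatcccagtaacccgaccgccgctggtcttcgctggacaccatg
In BST2 the 2 matches overlap each other, whereas in IFITM3 they lie apart. Among 9328 tested genes with a single RefSeq promoter, 15.1% held the antioxidant core, against 15.5% of the 728 that were higher in HT-29 than in each other line and 13.7% of the 1097 that were lower. Among genes of at least 10 TPM the shares were 15.8% of all, 18.1% of the higher and 15.6% of the lower genes. Over all, higher and lower promoters at any level, TATAAA was in 6.54%, 10.4% and 6.47%, and the interferon core in 6.51%, 7.42% and 6.2%. Among genes of at least 10 TPM these shares were 4.51%, 6.85% and 5.9% for TATAAA and 6.03%, 5.75% and 6.6% for the interferon core, whose order of higher and lower genes thus turned. These shares are descriptions of letters in a window and were not tested. Of the 24 leading genes described next, 10 had a single promoter entry.

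Baseline expression of HT-29 differed widely from that of the other two lines. A gene was called with edgeR at an adjusted p of at most 0.01 and a difference of at least 1 on the log2 scale, which is a 2-fold difference. Of 21989 tested genes, 3402 (15.5%) were higher and 4266 (19.4%) were lower in HT-29 than the mean of the other lines. A mean can be carried by 1 line, so genes were also required to differ in the same direction from DLD-1 and from HCT-116. By this rule 1880 genes (8.55%) were higher and 2447 (11.1%) were lower in HT-29 than in each other line, which is 55.3% and 57.4% of the genes called against the mean. The 3 HT-29 libraries lay above all 6 others in TPM for 19.9% of tested genes and below all 6 for 27.9%. In pairs, 33.2% of genes were called between HT-29 and DLD-1, 40.0% between HT-29 and HCT-116 and 31.8% between DLD-1 and HCT-116. The share of genes that set a line apart from both others, in either direction, was 19.7% for HT-29, 19.6% for HCT-116 and 11.6% for DLD-1. The shares for HT-29 and HCT-116 were thus nearly equal.

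**Figure D1:**
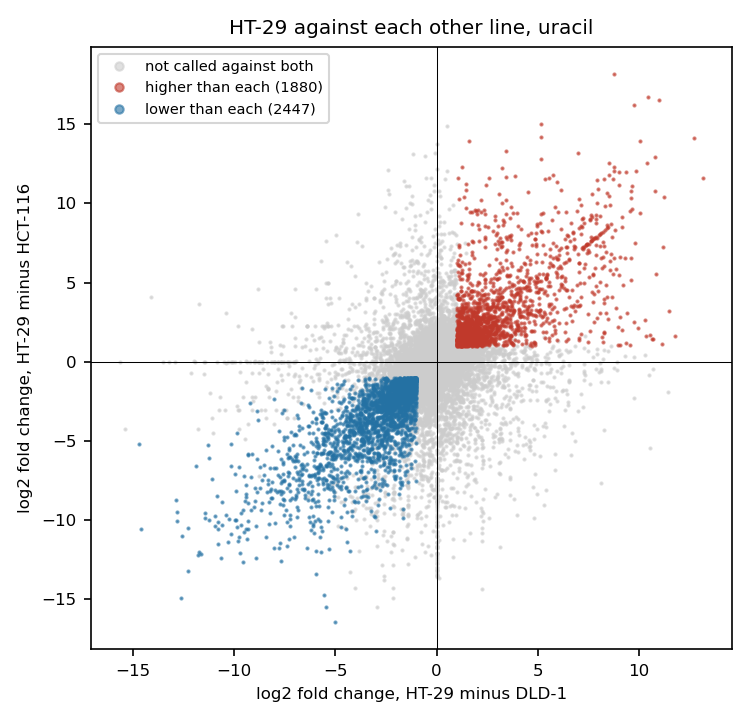
Each point is 1 of 21989 tested genes, placed by its log2 fold change between HT-29 and DLD-1 (x axis) and between HT-29 and HCT-116 (y axis) under uracil. The 1880 red genes were higher and the 2447 blue genes lower in HT-29 than in each other line, and grey genes were not called against both.

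LYZ, ALDH1A1 and GPX2 headed the genes with the largest gap between HT-29 and the nearer of the other lines. LYZ (chr12:69348381-69354234, plus strand, ENSG00000090382.7), the antibacterial enzyme lysozyme, was at 1557, 1543 and 1422 TPM in the 3 HT-29 libraries, at 6.57, 0.201 and 0.0283 TPM in DLD-1 and at 0.0656, 0.129 and 0.26 TPM in HCT-116. The lowest HT-29 library was thus far above every other library, and DLD-1 replicate 1 stood above its 2 sister libraries. The log2 difference of LYZ from DLD-1 was 10.07 (SE 0.63, adjusted p = 4.98e-11). ALDH1A1 (chr9:72900671-73080442, minus), an enzyme that makes retinoic acid and oxidizes aldehydes, was at 1090, 1096 and 997 TPM in HT-29 and at 2.62, 0.0775 and 0.0295 TPM in DLD-1. In HCT-116 it was at 0.0779, 0 and 0.0163 TPM, and no library of the other lines came near the HT-29 levels. GPX2 (chr14:64939152-64942746, minus), the gastrointestinal glutathione peroxidase that reduces peroxides, was at 1083, 1117 and 1019 TPM in HT-29, against 7.24, 1.38 and 1.59 TPM in DLD-1 and 0.432, 0.531 and 0.138 TPM in HCT-116. It was higher than in DLD-1 by 8.72 (SE 0.32) and than in HCT-116 by 11.56 (SE 0.41) on the log2 scale.

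DLD-1 replicate 1 was the highest of the DLD-1 libraries for 9 of the 12 leading genes that were higher in HT-29, and held 0.436% of the HT-29 level of LYZ, 0.247% of that of ALDH1A1 and 0.675% of that of GPX2. The part of this library's high values in the results was measured by leaving it out, which gave 1838 higher and 2513 lower genes against each line. Without it, LYZ differed from DLD-1 by 13.28 (SE 0.21), ALDH1A1 by 14.03 (SE 0.17), GPX2 by 9.56 (SE 0.13), TM4SF4 by 12.44 (SE 0.15) and UGT1A8 by 11.13 (SE 0.18) on the log2 scale, so these values moved by more than 1.5-fold and the calls remained. For these 5 genes the size of the fold change therefore rested on this library.

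TM4SF4 (chr3:149474697-149503394, plus), a membrane protein with 4 transmembrane segments, was at 232, 228 and 220 TPM in HT-29, at 0.951, 0.0482 and 0.0921 TPM in DLD-1 and at 0 in all HCT-116 libraries. Its level was at least 3273-fold higher in HT-29 than in HCT-116, taking 3 counts per library as the floor. LGALS4 (chr19:38801671-38812945, minus), galectin-4, a sugar-binding protein of the intestinal brush border, was at 405, 419 and 398 TPM in HT-29, at 1.19 to 4.25 TPM in DLD-1 and at 0.139 to 0.247 TPM in HCT-116. GCNT3 (chr15:59594875-59640239, plus), which branches the O-glycans of mucins, was at 309, 316 and 291 TPM in HT-29 and at most 2.84 TPM elsewhere. CEACAM1 (chr19:42507304-42561234, minus), an adhesion molecule of epithelial cells, was at 131, 129 and 139 TPM and VSIG2 (chr11:124747474-124752255, minus) at 76.2, 76 and 76.5 TPM in HT-29. Both were at 1.13 TPM or less in every library of the other lines.

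**Figure D2:**
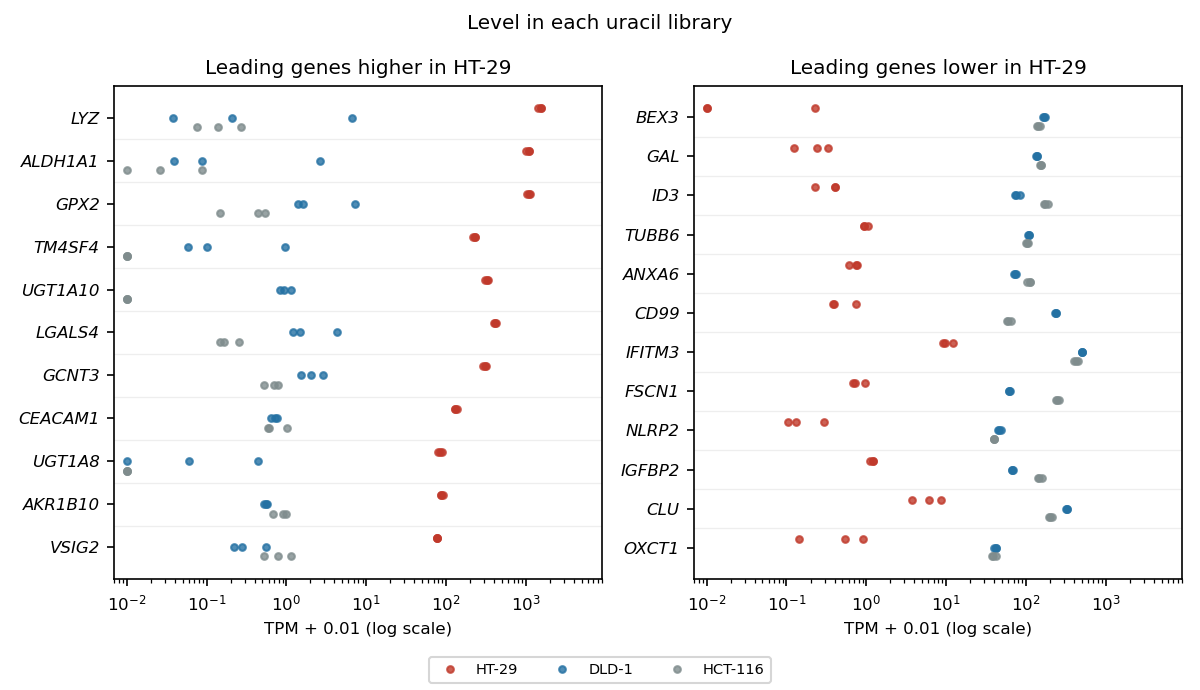
Each point is the level of a gene in 1 uracil library, on a log axis of TPM plus 0.01, for the genes with the largest gap in each direction. HT-29 points lie to the right of all others in the left panel, with LYZ at 1422 to 1557 TPM, and to the left of all others in the right panel, and the blue point of DLD-1 replicate 1 stands apart for LYZ, ALDH1A1 and GPX2.

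On the other side, HT-29 lacked or nearly lacked transcripts that were abundant in both other lines. BEX3 (chrX:103376395-103378164, plus), an adaptor of the neurotrophin receptor, was at 0.216, 0 and 0 TPM in HT-29, at 172, 163 and 168 TPM in DLD-1 and at 137, 141 and 148 TPM in HCT-116. GAL (chr11:68683779-68691175, plus), the neuropeptide galanin, was at 0.116 to 0.32 TPM in HT-29, at 135 to 138 TPM in DLD-1 and at 150 to 156 TPM in HCT-116. The log2 difference of GAL was -9.18 (SE 0.11) from DLD-1 and -9.36 (SE 0.11) from HCT-116. IFITM3 (chr11:319676-329475, minus), which restricts the entry of viruses into cells, was at 9.17, 9.64 and 12.2 TPM in HT-29, at 505 to 510 TPM in DLD-1 and at 404 to 448 TPM in HCT-116. It had the highest residual level in HT-29 among the 12 leading genes that were lower. CLU, the secreted chaperone clusterin, was at 3.77 to 8.54 TPM in HT-29 and at 197 to 325 TPM in the other lines.

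Cytoskeletal and membrane genes were among the leading lower genes. FSCN1 (chr7:5592816-5606655, plus), the actin-bundling protein fascin, was at 0.664, 0.946 and 0.711 TPM in HT-29, at 60.8 to 62.8 TPM in DLD-1 and at 239 to 259 TPM in HCT-116. TUBB6 (chr18:12307669-12344320, plus), a beta-tubulin, was at 0.915 to 1.04 TPM in HT-29 and at 99.6 to 110 TPM in the other lines. ANXA6, a calcium-dependent membrane-binding annexin, was at 0.692 ± 0.0843, 73.3 ± 1.47 and 110 ± 4.52 TPM in HT-29, DLD-1 and HCT-116 (SD, n = 3), and CD99, a surface glycoprotein, was at 0.499 ± 0.21, 238 ± 2.91 and 60.9 ± 4.12 TPM. OXCT1, the mitochondrial enzyme that lets cells burn ketone bodies, was at 0.519 ± 0.38 TPM in HT-29 against 41.6 ± 1.16 and 39.5 ± 2.4 TPM. IGFBP2, which binds insulin-like growth factors, was at 1.16 ± 0.0603 TPM against 67.3 ± 1.6 and 150 ± 8.79 TPM. NLRP2, of the NLR family of innate immune proteins, was at 0.167 ± 0.103 TPM against 46.3 ± 1.72 and 39.4 ± 0.36 TPM. In all 12 leading lower genes, which were chosen by this gap, the 3 HT-29 libraries lay below the other 6.

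Intestinal transcription factors split within HT-29. Of 22 tested factors, 7 were higher and 3 lower in HT-29 than in each other line, where the shares over all tested genes were 8.55% and 11.1%; the median log2 difference of the list was 0.28 from DLD-1 and 2.39 from HCT-116 (2.19 with genes without a count at their floor), against -0.03 and -0.01 over all genes. CDX2, the homeodomain factor that specifies intestine, was at 0.181, 0.106 and 0.294 TPM in HT-29, at 122, 115 and 123 TPM in DLD-1 and at 9.41, 11.2 and 11.1 TPM in HCT-116. Its log2 difference was -9.31 (SE 0.09, adjusted p = 2.74e-21) from DLD-1 and -5.90 (SE 0.11, adjusted p = 8.81e-19) from HCT-116. KLF4, a factor of differentiated colonocytes and goblet cells, was at 1.33 to 1.83 TPM in HT-29 and at 12.5 to 17.6 TPM in the other lines. For both CDX2 and KLF4 the HT-29 libraries lay below all others.

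The nuclear receptor HNF4G, which regulates gut genes, and the secretory factors went the other way. HNF4G was at 24.3, 25.8 and 23.3 TPM in HT-29, at 2.13 to 2.78 TPM in DLD-1 and at 3.28 to 4.08 TPM in HCT-116, a difference of 3.35 (SE 0.08) and 2.64 (SE 0.08) on the log2 scale. Its relative HNF4A did not set HT-29 apart, at 17.3 to 17.6 TPM in HT-29 and 17.4 to 18.4 TPM in DLD-1, while HCT-116 had at most 0.27 TPM. SPDEF, which drives goblet cell maturation, was at 16.2, 15.8 and 16.4 TPM in HT-29 and at most 0.361 TPM elsewhere. KLF5, a factor of proliferating crypt cells, was at 288, 289 and 296 TPM in HT-29, at 120 to 123 TPM in DLD-1 and at 23.7 to 28.2 TPM in HCT-116. PPARG, the lipid-sensing nuclear receptor, was at 117 TPM against 27.2 and 31.8 TPM as means. ATOH1, also called higher and the master factor of the secretory lineage, stayed at 0.488 TPM in HT-29.

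**Figure D3:**
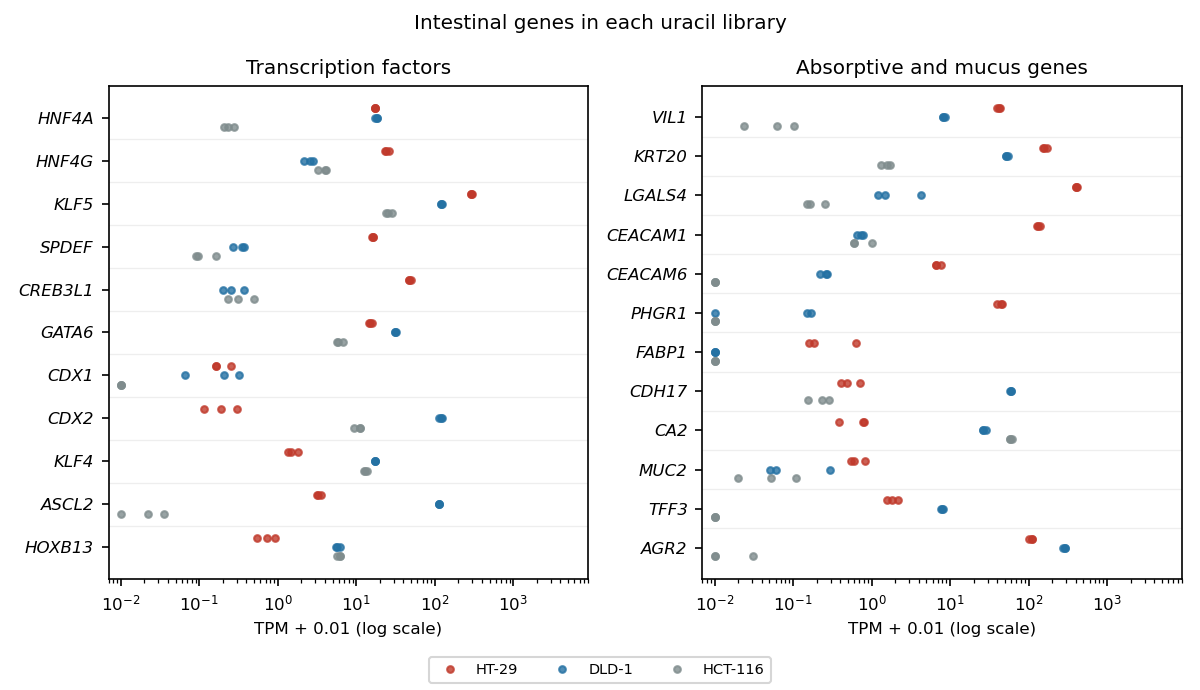
Each point is the level of a gene in 1 uracil library on a log axis of TPM plus 0.01, for transcription factors (left) and for absorptive and mucus genes (right). HT-29 has the lowest points for CDX2 (0.106 to 0.294 TPM), KLF4 and CA2 and the highest for HNF4G, SPDEF, CREB3L1, LGALS4 and CEACAM1.

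Among the absorptive genes that could be tested, more were higher than lower in HT-29. Of 22 tested colonocyte and brush border genes, 12 (54.5%) were higher and 4 (18.2%) lower than in each other line, with a median log2 difference of 1.61 from DLD-1 and 2.53 from HCT-116. The list had 35 genes, and CA1, CA4, SLC26A3 and AQP8, at 0.113, 0.101, 0.0209 and 0 TPM in HT-29, were among those not tested. The higher members MYO7B and CEACAM7 were at only 0.201 and 0.362 TPM. VIL1, villin, which bundles actin in microvilli, was at 39.4, 41.6 and 43.6 TPM in HT-29, at 8.05 to 8.66 TPM in DLD-1 and at 0.0135 to 0.0922 TPM in HCT-116. KRT20, a keratin of mature colonocytes, was at 159, 172 and 153 TPM in HT-29, at 51 to 53.9 TPM in DLD-1 and at 1.31 to 1.71 TPM in HCT-116. For both genes the order was HT-29, then DLD-1, then HCT-116, with no overlap between neighbors. PHGR1, a small protein abundant in gut epithelium, was at 45.8, 40 and 44.2 TPM in HT-29, at no more than 0.159 TPM in DLD-1 and at 0 in HCT-116, where the bound was at least 180-fold. CEACAM6, an adhesion molecule, was at 6.57 to 7.64 TPM in HT-29, at 0.208 to 0.264 TPM in DLD-1 and at 0 in HCT-116 (at least 213-fold).

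Other genes of the same list were low in HT-29. CA2, a carbonic anhydrase of colonocytes, was at 0.782, 0.373 and 0.756 TPM in HT-29, at 25.9 to 28.3 TPM in DLD-1 and at 58.2 to 60.7 TPM in HCT-116. The other 3 lower members were CDHR2 and MYO1A, of the brush border, and SLC26A2, a sulfate transporter, at means of 0.156, 0.0651 and 1.35 TPM. CDH17, an intestinal cadherin, was at 0.399 to 0.695 TPM in HT-29 and at 58.3 to 59.6 TPM in DLD-1, but at 0.145 to 0.273 TPM in HCT-116, so HT-29 was lower than DLD-1 only. FABP1, a fatty acid binding protein, was at 0.15, 0.177 and 0.62 TPM in HT-29 and at 0 elsewhere, and was too low to be tested.

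Mucus genes were called higher for 5 and lower for 1 of 21 tested members, with a median log2 difference of -0.04 from DLD-1 and 3.72 from HCT-116. The called members were 23.8% and 4.76% of the list, against 8.55% and 11.1% of all tested genes. CREB3L1, a transcription factor of the secretory pathway, was at 50.2, 46.6 and 47.1 TPM in HT-29 and at most 0.485 TPM in the other lines. BCAS1 was at 15.8 to 17.5 TPM in HT-29, 0.999 to 1.39 TPM in DLD-1 and 0.109 to 0.309 TPM in HCT-116. The secreted products themselves were low: MUC2, the gel-forming mucin of goblet cells, was at 0.591, 0.533 and 0.816 TPM in HT-29 against at most 0.288 TPM, and TFF2, a trefoil peptide, at 2.99 to 4.19 TPM against 1.12 to 1.59 TPM in DLD-1 and 0 in HCT-116. AGR2, a disulfide isomerase needed for mucin folding, and TFF3, the trefoil peptide of goblet cells, were lower in HT-29 than in DLD-1, at 107 ± 6.31 against 286 ± 7.17 TPM and at 1.83 ± 0.287 against 7.86 ± 0.269 TPM (SD, n = 3). In HCT-116 both were near 0. GALNT5, which starts O-glycan chains, was the 1 lower member, at 0.47 ± 0.0828 TPM against 3.11 ± 0.243 and 3.15 ± 0.183 TPM.

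All 3 tested Paneth cell genes were higher in HT-29: LYZ, the protease MMP7 at 28.8, 32.3 and 27.6 TPM against at most 0.686 TPM, and PLA2G2A at a mean of 0.641 TPM against 0.34 and 0.0152 TPM. The defensin DEFA5, which defines Paneth cells, was at 0 TPM in all HT-29 libraries, and 7 of the 10 listed genes were not tested. Genes low in the other lines, as LYZ and MMP7 were, could pass the count filter through HT-29 alone. The 3 higher calls are therefore a description of these genes and no test of the list. Of 6 tested enteroendocrine genes, edgeR called 0 higher (0 at an unadjusted p under 0.05 against both lines, 0 by DESeq2 and 0 by limma). Of the 6, 2 (33.3%) were lower. The shares over all tested genes were 8.55% higher and 11.1% lower. SCG5, 1 of the 2 lower genes and a chaperone of hormone processing, was at 0.271 to 0.549 TPM in HT-29, at 10 to 12.9 TPM in DLD-1 and at 0.965 to 1.67 TPM in HCT-116.

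WNT target and stem cell genes showed no common direction against both lines, with 3 higher and 4 lower of 24 tested and a median log2 difference of -0.57 from DLD-1 and 0.62 from HCT-116 (0.39 with genes without a count at their floor). The called members were 12.5% and 16.7% of the list, against 8.55% and 11.1% of all tested genes. LGR5, the stem cell receptor for R-spondins, was at 6.89 to 7.78 TPM in HT-29, 21.1 to 22.4 TPM in DLD-1 and 0.0463 to 0.0564 TPM in HCT-116. AXIN2, a feedback inhibitor of WNT signaling, was at 41.5 to 43 TPM in HT-29, 280 to 294 TPM in DLD-1 and 8.94 to 11 TPM in HCT-116. HT-29 was thus between the other two lines for both genes. EPHB2, a receptor that positions cells along the crypt, was at 0.952, 0.868 and 0.719 TPM in HT-29, at 25.8 to 27.5 TPM in DLD-1 and at 15.4 to 16.6 TPM in HCT-116. NKD1 and NOTUM, both inhibitors of WNT signaling, were at 0.114 ± 0.0786 and 0.227 ± 0.112 TPM in HT-29 and at 2.01 TPM or more on average elsewhere. PTPRO, a receptor phosphatase, was the clearest higher member at 6.33 to 6.9 TPM against at most 0.101 TPM.

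Drug and xenobiotic metabolism held the second largest share of higher genes among lists with at least 10 tested members, with 15 higher (50%) and 5 lower (16.7%) of 30. The shares over all tested genes were 8.55% and 11.1%. The median log2 difference of the list was 1.28 from DLD-1 and 2.24 from HCT-116. For SULT1B1, 1 of the 15, TPM and counts disagreed against HCT-116. It was at 0.36 ± 0.103 TPM against 0.52 ± 0.191 TPM, while the log2 difference in counts was 1.61. UGT2B7, also among the 15, was at only 0.238 TPM in HT-29. The glucuronidation enzyme UGT1A10 (chr2:233636448-233773300, plus) was at 328, 332 and 305 TPM in HT-29, at 0.816 to 1.12 TPM in DLD-1 and at 0 in HCT-116, where HT-29 was at least 8748-fold higher. UGT1A8 (chr2:233617633-233773300, plus) was at 78.3 to 88 TPM in HT-29, at no more than 0.436 TPM in DLD-1 and at 0 in HCT-116 (at least 2286-fold). UGT1A6, from the same locus, was at 46.5 ± 3.2 TPM in HT-29 and 40 ± 1.47 TPM in DLD-1 (log2 difference -0.11, SE 0.07, adjusted p = 0.169). The UGT1A genes share their last exons, and how kallisto split those reads between them is uncertain.

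CYP3A5, a cytochrome P450 that oxidizes many drugs, was at 78.1, 75.7 and 85.9 TPM in HT-29, at 1.78 to 2.29 TPM in DLD-1 and at 1.63 to 2.01 TPM in HCT-116, a difference of 4.46 (SE 0.08, adjusted p = 1.96e-19) and 4.53 (SE 0.08, adjusted p = 2.16e-19). AKR1B10 (chr7:134527567-134541412, plus), an aldo-keto reductase of retinal and other aldehydes, was at 87.3, 92.7 and 86.5 TPM in HT-29 and at 0.516 to 0.971 TPM elsewhere. AKR1C2, a reductase of steroids, was at 57.9, 69.6 and 58.1 TPM and its near-identical neighbors AKR1C1 and AKR1C3 were at means of 38.5 and 181 TPM, and none of the 3 had a mean above 4.74 TPM in another line. Reads could be split between the AKR1C copies. The efflux pumps went in both directions: ABCG2 and ABCC3 were higher, at means of 62.9 and 212 TPM against at most 3.63 and 44.8 TPM, while ABCB1 was at 0.415 TPM in HT-29 against 82.8 TPM in DLD-1 and 1.68 TPM in HCT-116, and ABCC2 at 0.42 TPM against 2.1 and 53.7 TPM. The glutathione transferase GSTM4 was at 1.49 TPM against 74.5 and 15.6 TPM.

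**Figure D4:**
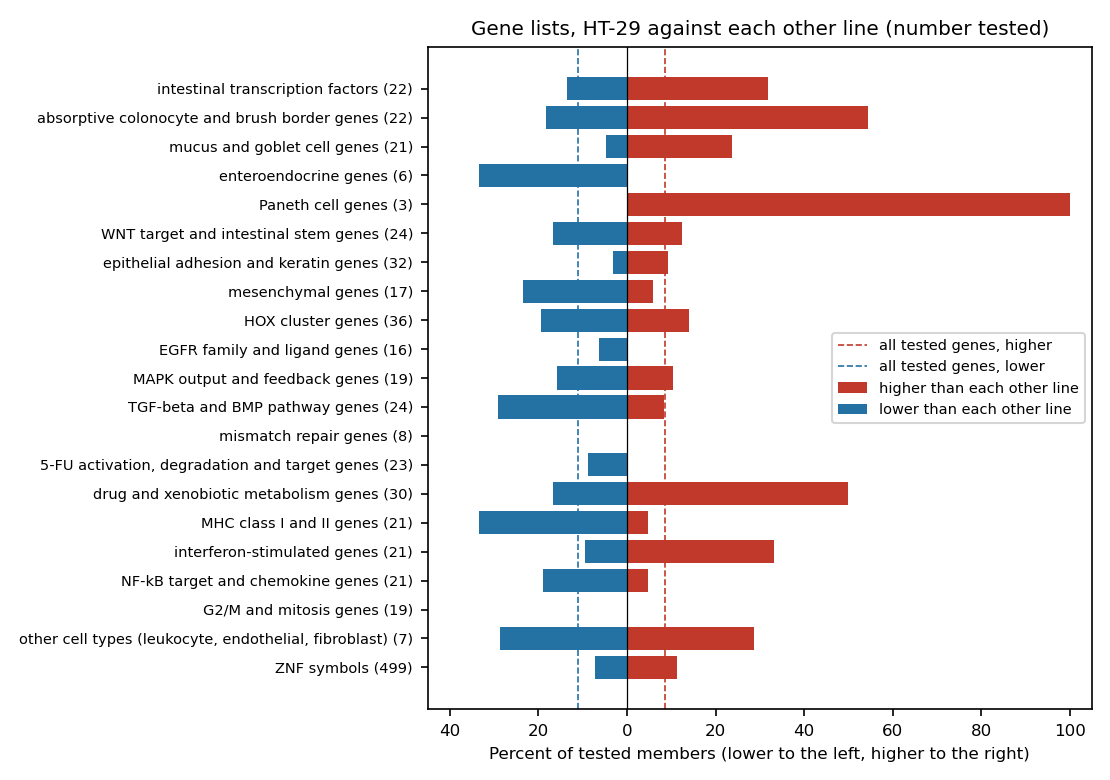
Bars give the percent of tested members (number in brackets) of each list that were higher (red, to the right) or lower (blue, to the left) in HT-29 than in each other line, and dashed lines the same shares of all tested genes, 8.55% and 11.1%. Colonocyte genes (54.5% higher) and drug metabolism genes (50% higher) reach furthest to the right among lists with at least 10 tested members.

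Genes of 5-FU metabolism did not follow the wider drug list. Of 23 tested, edgeR called 0 higher and 2 (8.7%) lower than in each other line, against 8.55% and 11.1% of all tested genes. At an unadjusted p under 0.05 with no fold threshold 6 were higher than in both, and DESeq2 and limma also called 0 higher. SLC29A1, a nucleoside transporter, was at 26.8, 24.6 and 24.2 TPM in HT-29 and at 66.9 to 68.9 TPM in the other lines, and ABCC5, an efflux pump for nucleotide analogs, at 5.66 to 6.36 TPM against 12.4 to 20.1 TPM. TYMS, the enzyme that 5-FU inhibits, was at 213 ± 2.91 TPM in HT-29, 280 ± 5.85 in DLD-1 and 294 ± 5.88 in HCT-116, below the 2-fold threshold. DPYD, which degrades 5-FU, was at 1.46 to 1.57 TPM in HT-29, 0.0438 to 0.103 TPM in DLD-1 and 0.977 to 1.17 TPM in HCT-116. For TYMP, which activates the drug, TPM and counts disagreed: it was at 1.76 ± 0.157 TPM against 3.86 ± 0.585 TPM in DLD-1, while the log2 difference in counts was 0.07 (SE 0.11). Counts do not account for the length of the isoforms used.

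The TGF-beta and BMP pathway, which restrains epithelial growth through SMAD4, had 2 higher and 7 lower genes of 24 tested, with a median log2 difference of -0.88 from DLD-1 and -0.55 from HCT-116. The called members were 8.33% and 29.2% of the list, against 8.55% and 11.1% of all tested genes. SMAD4, the shared mediator of both branches, was at 11, 11.7 and 12.7 TPM in HT-29, at 60.9 to 64.2 TPM in DLD-1 and at 62.8 to 64.5 TPM in HCT-116. Its log2 difference was -2.15 (SE 0.05, adjusted p = 6.61e-17) from DLD-1 and -2.40 (SE 0.06, adjusted p = 9.86e-18) from HCT-116. The BMP targets ID3 (chr1:23557926-23559501, minus) and ID2, inhibitors of bHLH factors, were at 0.215, 0.398 and 0.392 TPM and at 14.5, 11.4 and 14.9 TPM in HT-29, against 73.2 to 188 TPM and 145 to 215 TPM in the other lines. BAMBI, a decoy receptor, was at 0.0554 to 0.137 TPM in HT-29, 39.8 to 42.4 TPM in DLD-1 and 5.56 to 6.82 TPM in HCT-116. TGFBR1, TGFB1 and TGFB3 were the other lower members, at means of 8.08, 15.7 and 0.44 TPM. SKIL, a repressor of SMAD signaling, was higher at 62.7, 63.6 and 65.7 TPM against 11.5 to 14.2 TPM, and SMAD6, an inhibitory SMAD, at a mean of 28.5 TPM against 1.16 and 8.25 TPM. TGFBR2 was at 29.9 ± 1.5 TPM in HT-29 and 32.4 ± 0.626 TPM in DLD-1, with a log2 difference of 0.00 (SE 0.05).

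Of all tested genes 19.7% were set apart in either direction, against 1 of 16 growth factor receptor genes and 5 of 19 MAPK output genes. Of 16 tested genes of the EGFR family, its ligands and related receptors, edgeR called 0 higher (2 at an unadjusted p under 0.05 against both lines, 0 by DESeq2 and 0 by limma). FGFR1 was the 1 lower gene, at 0.255 to 0.406 TPM against 18.8 to 22.2 TPM in DLD-1 and 46 to 54.5 TPM in HCT-116. EGFR was at 16.5 ± 1.16, 16.9 ± 0.63 and 16.2 ± 1.61 TPM in HT-29, DLD-1 and HCT-116, which overlapped. Of 19 tested MAPK output genes, 2 were higher and 3 lower, with a median log2 difference of 0.01 from DLD-1 and -1.31 from HCT-116. DUSP5, a phosphatase of ERK, was at 2.91 to 3.46 TPM in HT-29 against 27.9 to 30.9 and 66.6 to 79.9 TPM, and the cyclin CCND1 at 66.6 to 70.8 TPM against 204 to 294 TPM. SPRED1, an inhibitor of RAS signaling, was higher at 41.8 to 44.8 TPM against 14 to 16.7 TPM. With library size alone as scaling, the MAPK list had 1 higher and 5 lower members. Of 19 G2/M genes, edgeR called 0 in either direction, as did DESeq2 and limma, and at an unadjusted p under 0.05 against both lines 7 were higher and 5 lower. The mitotic cyclin CCNB1 was at 302 ± 11.5, 307 ± 6.12 and 312 ± 7.89 TPM.

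Of 8 mismatch repair genes, edgeR, DESeq2 and limma called 0 against both lines in the same direction. At an unadjusted p under 0.05 with no fold threshold, 1 was higher and 4 were lower. Of all tested genes, edgeR set 19.7% apart in either direction, and 8 genes are few to set beside that share. MSH6 was at 52.8 to 56.3 TPM in HT-29, 12.3 to 14.6 TPM in DLD-1 and 46.6 to 53.3 TPM in HCT-116. HT-29 was therefore above DLD-1 for MSH6, a subunit of the mismatch recognition complex.

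Antigen presentation genes were more often lower than higher in HT-29, and interferon-stimulated genes more often higher than lower. Of 21 tested MHC genes, 1 (4.76%) was higher and 7 (33.3%) were lower, with a median log2 difference of -0.50 from DLD-1 and -0.73 from HCT-116. The shares over all tested genes were 8.55% and 11.1%. HLA-C was at 18.6, 18.6 and 17 TPM in HT-29, at 205 to 211 TPM in DLD-1 and at 215 to 223 TPM in HCT-116, and HLA-B at 10.1 to 13.1 TPM against 27 to 28.4 and 124 to 138 TPM. The peptide transporter TAP1 was at 1.72, 2.16 and 1.82 TPM against 25.7 to 32.5 TPM, and the immunoproteasome subunit PSMB9 at 0.374 to 0.647 TPM against 6.4 to 13.2 TPM. NLRC5, the transactivator of MHC class I genes, was at a mean of 0.322 TPM against 5.89 and 3.52 TPM. B2M, the light chain of MHC class I, was not lower, at 1076 to 1194 TPM in HT-29 against 251 to 270 and 711 to 748 TPM. CD74, the class II invariant chain, was the 1 higher member, at a mean of 5.14 TPM. HLA genes are alike in sequence, so the split of reads between single members is uncertain.

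Of 21 tested interferon-stimulated genes, 7 (33.3%) were higher and 2 (9.52%) lower, with a median log2 difference of 0.66 from DLD-1 and 1.19 from HCT-116. The shares over all tested genes were 8.55% and 11.1%. BST2, tetherin, which holds budding viruses at the cell surface, was at 111, 110 and 111 TPM in HT-29, at 1.39, 0.0531 and 0 TPM in DLD-1 and at 2.24 to 3.12 TPM in HCT-116. IFI27 was at 49.5 to 52 TPM in HT-29 and at 9.71, 1.23 and 1.38 TPM in DLD-1, and IFI44 at 22.6 to 26.1 TPM against 0.939, 0 and 0 TPM. DLD-1 replicate 1 was again the highest of its line, and without it the log2 differences from DLD-1 went from 8.74 to 11.37 for BST2, from 4.02 to 4.89 for IFI27 and from 7.69 to 12.69 for IFI44. USP18, which dampens interferon signaling, was lower, at 1.26 to 1.66 TPM against 5.35 to 14.5 TPM, as was IFI6, at a mean of 9.59 TPM against 25 and 27.1 TPM. Of 21 NF-kB targets, CXCL6 was higher and 4 were lower, among them CXCL16 at 4.57 to 5.51 TPM against 35.8 to 43.2 TPM and NFKB2 at 10.4 to 12 TPM against 44.2 to 66.2 TPM. The NF-kB list was lower against DLD-1 (17 called lower, 1 higher) but not against HCT-116 (4 called lower, 10 higher). Over all tested genes, 33.2% were called in either direction against DLD-1 and 40.0% against HCT-116.

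Among 32 tested adhesion and keratin genes, 3 (9.38%) were higher and 1 (3.12%) lower, against 8.55% and 11.1% of all tested genes. The tight junction proteins CLDN3 and CLDN1 were at 92.2 to 102 TPM against 13.2 to 18.2 TPM, and at 13.5 to 14.2 TPM against 0.156 to 7.23 TPM. ESRP1, an epithelial splicing factor, was at 147 to 153 TPM against 14.1 to 16.8 TPM in DLD-1 and 72.3 to 78 TPM in HCT-116. CDH3, P-cadherin, was lower at 0.457 to 0.764 TPM against 38.2 to 72.2 TPM. Of 17 mesenchymal genes, 1 (5.88%) was higher and 4 (23.5%) were lower. S100A4, a calcium-binding protein counted among mesenchymal markers, was the higher one, at 3388, 3449 and 3170 TPM in HT-29, 63 to 89.1 TPM in DLD-1 and 299 to 302 TPM in HCT-116. VIM, ITGA5, FN1 and SPARC were the lower ones, with ITGA5, a fibronectin receptor subunit, at no more than 0.0261 TPM in HT-29 against 10.7 to 27.2 TPM. SPARC, a matrix protein, was at a mean of 2240 TPM in HCT-116 and at 0.0251 and 0.92 TPM in HT-29 and DLD-1.

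HOX genes, which record position along the body axis, had 5 higher (13.9%) and 7 lower (19.4%) members of 36 tested. The shares over all tested genes were 8.55% and 11.1%. Both the HOXA and the HOXB cluster held members of both kinds. HOXB13, a marker of the distal colon, was at 0.73, 0.904 and 0.536 TPM in HT-29 and at 5.55 to 6.25 TPM in the other lines. HOXA7 was lower, at 5.83 to 6.58 TPM against 17.3 to 23 TPM, while HOXA2 was higher, at a mean of 5.32 TPM against 1.93 and 0.435 TPM, and HOXC6 and HOXB5 were higher too, at 7.49 to 8 TPM against 1.97 to 3.57 TPM and at 29.2 to 36.8 TPM against 3.88 to 16 TPM. The other 5 lower genes, HOXD3, HOXD4, HOXD8, HOXD10 and HOXD11, all belong to the HOXD cluster and had mean levels of at most 0.0312 TPM in HT-29. Most were low in the other lines too. HOXD3 and HOXD4 had means of 0.142 to 0.601 TPM there. HOXD10 and HOXD11 were at 2.58 and 1.11 TPM in DLD-1 and at 0.0906 and 0.176 TPM in HCT-116. HOXD8 was at 0.491 TPM in DLD-1 and 8.39 TPM in HCT-116. HOXD9 and HOXD13 were at 0.0305 and 0.0274 TPM in HCT-116, near their HT-29 levels. The median of the HOX list against DLD-1 changed sign, from -0.11 to 0.01, when genes without a count in 1 line were set to their floor.

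By chromosome, the median of HT-29 differed from both lines in the same sense on several chromosomes. The medians were taken over genes of at least 1 TPM on average, of which 13784 of 15713 (87.7%) had a position in GENCODE 44 (GRCh38), and the median over all such genes was 0.006 on the log2 scale. The median difference from the mean of the other lines was 0.61 on chromosome 13 (239 genes; SD over the HT-29 libraries 0.034), 0.47 on chromosome 20 (376 genes; SD 0.048) and 0.39 on chromosome 15 (453 genes; SD 0.034). It was -0.56 on chromosome 22 (348 genes; SD 0.039), -0.50 on chromosome 14 (451 genes; SD 0.056) and -0.40 on chromosome 18 (182 genes; SD 0.063). Each SD is over medians computed separately per HT-29 library, which were 0.57, 0.56 and 0.51 on chromosome 13. These SDs leave out the spread of the other lines. Of the genes on chromosome 13, 76.2% were above 0, against 25% on chromosome 22 and 21.5% on chromosome 14. On chromosome 13 the median was 0.51 against DLD-1 and 0.70 against HCT-116, and on chromosome 22 it was -0.50 and -0.55, whereas DLD-1 and HCT-116 differed from each other by 0.17 and -0.05. Chromosome 8 had the widest medians of opposite sign, at 0.21 against DLD-1 and -0.22 against HCT-116.

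The named genes did not all follow their chromosome. CDX2 and KLF5 both lie on chromosome 13, and CDX2 was lower and KLF5 higher in HT-29. SMAD4 lies on chromosome 18, where the median was -0.40, and its own log2 differences were -2.15 and -2.40. GPX2 lies on chromosome 14, where the median was -0.50, and was among the highest genes. With library size alone as scaling all medians were lower, the median of all expressed genes being -0.112, and chromosomes 13 and 22 stood at 0.49 and -0.68. DNA copy number was not among the data used here.

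**Figure D5:**
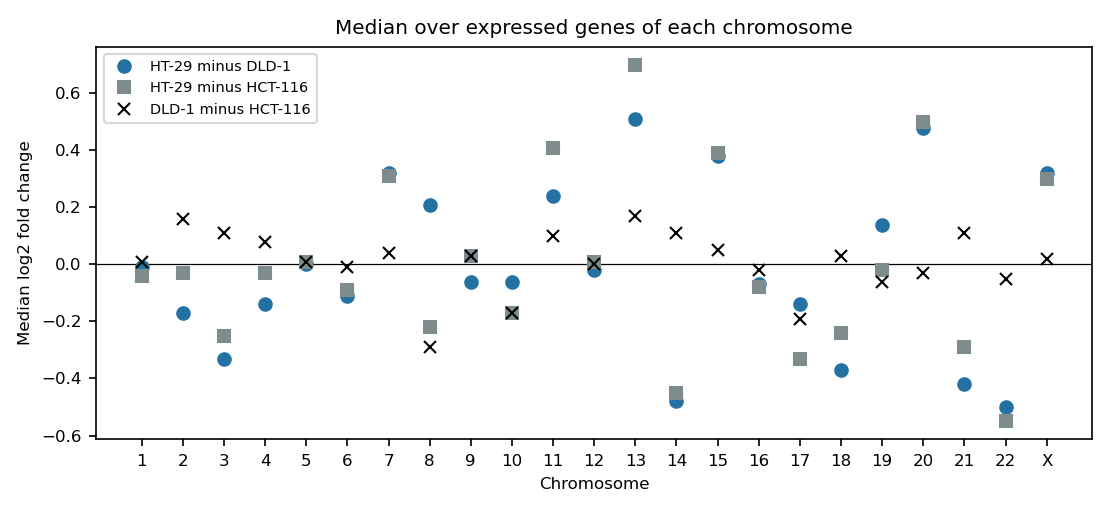
Each symbol is the median log2 fold change over the expressed genes of a chromosome, for HT-29 minus DLD-1 (circles), HT-29 minus HCT-116 (squares) and DLD-1 minus HCT-116 (crosses). Circles and squares lie together above 0 on chromosomes 7, 11, 13, 15, 20 and X and below 0 on 3, 14, 17, 18, 21 and 22, with chromosome 13 at 0.51 and 0.70.

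Chromosome 19 had a median of 0.00 but the second largest share of genes higher than in each other line, at 16.4% of 966 expressed genes, after 20.5% on chromosome 13. Over all expressed genes this share was 8.18%. Chromosome 19 carries most clusters of the ZNF genes, which encode zinc finger proteins. Of 499 tested genes with ZNF symbols, 57 (11.4%) were higher and 36 (7.21%) lower in HT-29 than in each other line. The shares over all tested genes were 8.55% and 11.1%. The 233 on chromosome 19 gave 40 higher (17.2%) and 8 lower (3.43%), and the 260 on other chromosomes gave 17 higher (6.54%) and 27 lower (10.4%). The remaining 982 tested genes of chromosome 19 gave 14.4% higher and 12.8% lower. ZNF genes in clusters are similar in sequence, so single members are uncertain.

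Finally, the calls were set beside the same 3 lines under treatment, in libraries that the uracil comparison did not use. Under 5-FU, 9.97% of tested genes were higher and 10.1% lower in HT-29 than in each other line, and with added irradiation 9.47% and 10.0%. Of the genes higher under uracil, 1376 of 1845 tested (74.6%) were called again in the same direction under 5-FU and 1338 of 1835 (72.9%) with irradiation. Of the lower genes, 1656 of 2428 (68.2%) and 1628 of 2412 (67.5%) were called again. The genes called in the opposite direction, 4 under 5-FU and 2 with irradiation, were all lower under uracil. The 24 leading genes all kept their call under both treatments, LYZ, GPX2, BEX3 and GAL among them, as did CDX2, SMAD4, VIL1 and CYP3A5. Of 92 genes taken by the naming rule and set apart under uracil, 74 kept their call under both treatments, 17 lost it under both and 1 under 5-FU only. Those that lost it under both include KLF5, CLDN1, GALNT5, SCG5, DUSP5, SLC29A1, HLA-B, PSMB9, USP18 and NFKB2, and the 1 was NOTUM.

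The 4 genes with an opposite call were IFI6, IL23A, KRT81 and RHEBL1, named after their values were seen. KRT81, a hair keratin, was at 0.176, 0.074 and 0.149 TPM in HT-29 under uracil and at 11.7, 12 and 12.1 TPM under 5-FU, when DLD-1 was at 0.894 to 0.957 TPM and HCT-116 at 2.43 to 2.66 TPM. IFI6 was at 8.63 to 11.5 TPM in HT-29 under uracil, below DLD-1 (23.8 to 26.2) and HCT-116 (25.6 to 29.4), and at 54.5 to 63.4 TPM under 5-FU, above both. RHEBL1 went from a mean of 1.3 TPM, the lowest of the lines, to 5.62 TPM, the highest. In a fit of all 27 sensitive libraries, HT-29 rose under 5-FU against the mean of the other lines for all 4 genes. The log2 rise was 2.56 (IFI6), 3.53 (IL23A), 4.87 (KRT81) and 3.00 (RHEBL1). These genes were chosen for this pattern, so their values are a description and no p-value is given.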

How the data were processed

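RNA-seq of HT-29, DLD-1 and HCT-116 was analysed from gene tables of estimated counts and TPM. The authors trimmed reads with Trimmomatic 0.36, checked them with FastQC 0.11.8, quantified transcripts with kallisto 0.44.0 against GRCh38.p13 (Ensembl 98), and deposited the estimated count and the TPM of each gene as sums over transcripts. The deposited transcript values of the 9 libraries gave the same totals.

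Estimated counts were rounded and tested with edgeR 4.0.16 (R 4.3.3): filterByExpr, TMM scaling, a quasi-likelihood fit with 1 group per line, and Benjamini-Hochberg adjustment over 21989 genes. Genes were called at 0.01 or less after adjustment with a log2 difference of 1 or more. On simulated counts (21131 genes, 200 changed), 200 were recovered, with 3 false calls against the mean and 0 against each line. The changed genes were above a minimum level and changed by more than the 2-fold threshold, and all others had equal means in the lines. The simulation therefore does not measure recovery near the threshold, at low levels or where many genes differ. Levels are TPM ± SD. The SE of a log2 difference was derived from the test, as its absolute value divided by the square root of the quasi-likelihood F statistic. A count of 3 per library was the floor for genes without counts, and covers counting error only. DESeq2 1.42.0 and limma 3.58.1 (log2 of TPM plus 1) were alternatives.

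Named genes were, per direction, the 12 genes apart from each line with at least 10 TPM on the higher side and the largest log2(TPM + 1) gap to the nearer line, leaving out Y-linked genes, XIST and TSIX, and per list fixed key genes with up to 4 other members. Some genes and lists covered by this rule are not reported here. Other members were named after their values were seen. The members and lists were chosen with earlier results of these data known. Replicates are biological triplicates per the study's methods. Positions are from GENCODE 44.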

Additional observations from a re-analysis of the deposited data

Results flagged for a closer look

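Among the genes taken by the naming rule, 1 stood out because all 3 HT-29 libraries lay on opposite sides of all 6 libraries of the other lines in control and in treated cells. TYMS, which encodes thymidylate synthase, was lowest in HT-29 under uracil, at 210, 216 and 213 TPM against 274 to 285 TPM in DLD-1 and 287 to 298 TPM in HCT-116. Under 5-FU it was highest in HT-29, at 380, 362 and 363 TPM (mean 368), against 285 ± 7.38 TPM in DLD-1 and 125 ± 2.3 TPM in HCT-116 (SD, n = 3). With 5-FU and irradiation the HT-29 mean was 360 TPM, against 282 ± 7.96 and 103 ± 4.7 TPM. In a fit of all 27 sensitive libraries, the log2 difference of HT-29 from the mean of the other lines rose by 1.28 (SE 0.05) under 5-FU. With irradiation it rose by 1.40 (SE 0.05). The gene was picked out by this pattern, so no p-value is given. The HT-29 level of TYMS was thus above and the HCT-116 level below that under uracil, while DLD-1 stayed at 274 to 293 TPM over the uracil and the 5-FU libraries. IFI6, IL23A, KRT81 and RHEBL1, named after their values were seen, showed the same separation of libraries.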

How the results depend on the processing

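The 4 counts of called genes stayed within 1.5 times under library size alone, DESeq2 size factors, DESeq2, no filter on low counts, thinning of the deepest library, all 27 sensitive libraries and the replicate block. They moved under limma on log2 TPM, to 1588 higher and 2733 lower than the mean and 952 higher and 1370 lower than each line, and under a log2 threshold of 2, to 1495, 2432, 779 and 1351. Genes called again then numbered 1771 under 5-FU and 1768 with irradiation under limma, against 3032 and 2966. The cause of the limma difference was not tested. Under limma TFF3 went from 3.71 to -0.08 and ASCL2 from 1.54 to -1.31 against the mean, in which HT-29 lies between the lines, and 6 other named genes were no longer called. Leaving out 1 library at a time gave 3317 to 3503 higher and 4039 to 4418 lower than the mean, 1822 to 1910 higher and 2313 to 2513 lower than each line, and 2940 to 3056 and 2892 to 2977 genes called again. Library size alone moved the median of all tested genes from -0.029 to -0.147 and gave 37.2% higher among genes apart, against 43.4%. Deviations of same-numbered libraries correlated at -0.050 to 0.132, and those of differently numbered libraries at -0.101 to 0.103. Replicate numbers thus gave no common pairing over the lines. Between DLD-1 and HCT-116, however, same-numbered pairs (0.024 to 0.132) lay above all differently numbered pairs (at most 0.010). With the replicate block 3364 genes were higher and 4155 lower than the mean, 1850 higher and 2380 lower than each line, with 2991 and 2934 called again. The shallowest library held 39728206 counts, and fold changes of genes near 0 TPM in a line rest on few counts.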
